A study of Mus musculus with 18 samples.

Results

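BMAL1 binding was examined at the heat shock and DnaJ chaperone genes of the mouse, in liver, kidney and heart. The set comprised the protein-coding genes of RefSeq GRCm38 whose symbols begin with Hspa, Hspb, Hspd, Hspe, Hsph, Hsp90, Dnaja, Dnajb or Dnajc, or with Hsf or Bag followed by a digit. This rule selected 86 of the 21887 protein-coding genes placed on chromosomes. A peak was assigned to a gene when its centre lay inside the gene or within 10 kb of either end. The mice were wild type on the C57BL/6 background, 3 to 6 months old, and were kept in 12 h of light and 12 h of darkness with free access to food and water. Liver, kidney and heart came from the same animals, 3 per tissue, killed at zeitgeber time 6, the middle of the light phase. Each tissue gave 3 ChIP libraries, precipitated with a chicken antibody against the N-terminal domain of BMAL1, and 3 input libraries.

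BMAL1 (gene Arntl), one of the activators that drive the circadian clock, works as a pair with CLOCK and binds E-boxes, whose canonical form is CACGTG. Molecular chaperones keep proteins folded. HSP70 proteins, encoded by Hspa genes, bind unfolded stretches of their clients in a cycle driven by ATP. DnaJ proteins (Dnaja, Dnajb and Dnajc) deliver clients and switch on that ATPase, while HSP110 and BAG proteins release the nucleotide again. HSP90 proteins mature signalling proteins, the HSP60 and HSP10 chaperonin encloses proteins inside mitochondria, and small heat shock proteins (Hspb) hold aggregating proteins. Heat shock factors (Hsf) bind heat shock elements, built from repeats of GAA and its complement, and switch on many of these genes under stress.

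The promoter letters at which the peaks lay are shown first, because they show where an E-box sits relative to the start. The RefSeq promoter table for GRCm38.p6 gives 300 bases per annotated start (250 before it and 50 from it on) and matched 69 of the 86 genes. The 17 genes without an entry were Bag4, Dnajc11, Dnajc12, Dnajc18, Dnajc2, Dnajc22, Dnajc30, Dnajc5, Dnajc5b, Hsf1, Hsf4, Hsp90aa1, Hsp90ab1, Hspa13, Hspa8, Hspa9 and Hspb2. The next 5 sequences are the 250 bases before the start at which a peak was centred close to a CACGTG, written 5′ to 3′ on the strand of the gene, with CACGTG in capitals. They come from chr1:55088244-55088493 (minus strand, Hspd1), chr16:35770136-35770385 (plus strand, Hspbap1), chr10:57486135-57486384 (plus strand, Hsf2), chr12:44210069-44210318 (minus strand, Dnajb9) and chr2:18392831-18393080 (minus strand, Dnajc1).
Hspd1: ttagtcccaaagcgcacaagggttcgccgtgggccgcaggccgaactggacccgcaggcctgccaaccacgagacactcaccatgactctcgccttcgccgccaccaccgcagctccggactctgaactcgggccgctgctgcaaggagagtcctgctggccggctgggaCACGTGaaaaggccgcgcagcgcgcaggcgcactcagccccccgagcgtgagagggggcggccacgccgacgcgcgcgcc
Hspbap1: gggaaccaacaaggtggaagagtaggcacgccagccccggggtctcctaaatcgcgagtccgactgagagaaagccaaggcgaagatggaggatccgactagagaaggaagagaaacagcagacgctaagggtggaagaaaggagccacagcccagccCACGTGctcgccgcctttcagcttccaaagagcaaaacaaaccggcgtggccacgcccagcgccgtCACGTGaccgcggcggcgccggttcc
Hsf2: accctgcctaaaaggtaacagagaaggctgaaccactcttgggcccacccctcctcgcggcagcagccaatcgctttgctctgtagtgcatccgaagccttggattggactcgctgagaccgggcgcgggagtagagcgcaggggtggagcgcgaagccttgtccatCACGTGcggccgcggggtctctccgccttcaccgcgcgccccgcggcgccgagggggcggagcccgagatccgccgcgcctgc
Dnajb9: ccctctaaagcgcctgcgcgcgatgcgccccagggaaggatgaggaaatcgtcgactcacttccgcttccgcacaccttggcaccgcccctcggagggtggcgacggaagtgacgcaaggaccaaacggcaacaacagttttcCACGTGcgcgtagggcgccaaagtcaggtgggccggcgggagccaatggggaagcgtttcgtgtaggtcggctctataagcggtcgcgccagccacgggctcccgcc
Dnajc1: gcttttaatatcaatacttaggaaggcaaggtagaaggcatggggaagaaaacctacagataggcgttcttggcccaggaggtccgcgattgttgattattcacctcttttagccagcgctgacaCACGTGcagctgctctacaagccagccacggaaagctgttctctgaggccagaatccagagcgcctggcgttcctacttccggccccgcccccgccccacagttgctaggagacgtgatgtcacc
The letters of Dnajc16 are shown as a contrast, because its E-box lay beside the peaks and not under them (chr4:141790645-141790894, minus strand).
Dnajc16: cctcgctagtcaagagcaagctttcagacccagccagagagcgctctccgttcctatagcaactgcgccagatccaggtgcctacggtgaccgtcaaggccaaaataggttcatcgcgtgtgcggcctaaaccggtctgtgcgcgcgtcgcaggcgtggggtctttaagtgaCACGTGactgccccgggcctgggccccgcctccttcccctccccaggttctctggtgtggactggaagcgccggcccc
The letters of Hsph1 are shown because an E-box and a heat shock element pattern stood close together (chr5:149636316-149636565, minus strand, CACGTG in capitals).
Hsph1: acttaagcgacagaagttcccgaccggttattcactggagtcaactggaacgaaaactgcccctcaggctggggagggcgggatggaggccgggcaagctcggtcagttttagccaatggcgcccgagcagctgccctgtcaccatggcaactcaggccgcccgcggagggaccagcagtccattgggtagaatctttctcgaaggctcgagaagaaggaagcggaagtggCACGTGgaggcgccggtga

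The tissues were compared through 3 peak lists, for which the authors pooled the replicates of each tissue. Their sizes were 4813 peaks for liver, 4034 for kidney and 2519 for heart. The score that accompanies each peak is the authors' own and has no stated scale. It ran from 17 to 389 (liver), 14 to 304 (kidney) and 16 to 375 (heart). It was used only to rank peaks within a list, as a percentile where the middle of a list is 50 and its top is 100. Replicates were pooled before deposit, so no value has an error between animals, no test between tissues could be made, and sequencing depth is unknown. A gene with no peak in a list has no peak above that list's threshold, which does not show that BMAL1 was absent there. For the heart inputs, titles and tissue labels name heart while the source label names kidney. Its part in the heart list was not tested. Peak lists carry no expression, so the tissues were not checked against expressed markers.

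A liver peak was assigned to 22 of the 86 genes (25.6%), a kidney peak to 26 (30.2%) and a heart peak to 17 (19.8%). By the same rule 18.1% of all protein-coding genes had a liver peak, 18.0% a kidney peak and 11.5% a heart peak. Altogether 34 genes (39.5%) had a peak in at least 1 tissue, against 30.7% of all protein-coding genes, and 52 had none. Peaks of at least 2 tissues lay at 22 genes (25.6%, against 12.7%) and peaks of all 3 tissues at 9 (10.5%, against 4.35%). At 5 genes (5.81%, against 3.09%) the peaks of the 3 tissues overlapped in 1 common region. The median gene length was 17956.5 bp in the set and 17169 bp over all protein-coding genes. These shares are a description of a list of genes and were not tested. Counting peaks inside genes alone left 11 genes with a liver peak (12.8%, against 10.2% of all protein-coding genes), 13 with a kidney peak (15.1%, against 9.66%) and 8 with a heart peak (9.3%, against 6.84%). By that count 1 gene had peaks of all 3 tissues (1.16%), below the 1.81% of all protein-coding genes. Giving each peak to its nearest protein-coding gene alone left 16 genes in liver (18.6%, against 13.4%), 18 in kidney (20.9%, against 13.1%) and 11 in heart (12.8%, against 8.74%). By that rule 3 genes had peaks of all 3 tissues (3.49%, against 2.84%).

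**Figure D1:**
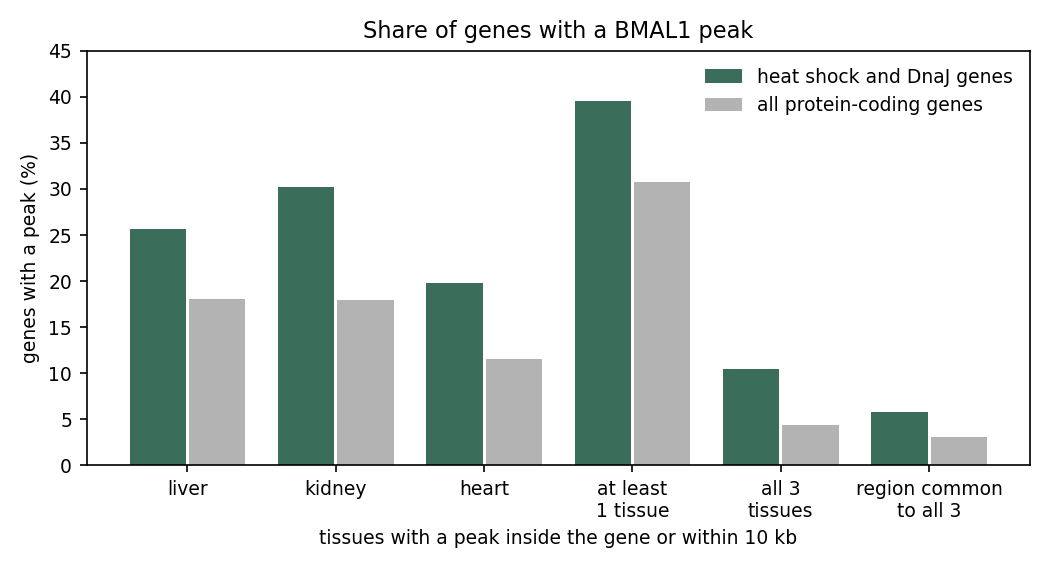
Bars give the percent of the 86 heat shock and DnaJ genes (green) and of all 21887 protein-coding genes (grey) that had a BMAL1 peak inside the gene or within 10 kb, by tissue and combination of tissues. There are no error bars, since each tissue has 1 pooled list; the green bar is above the grey one in all 6 comparisons, for example 30.2% against 18.0% in kidney.

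Genes with peaks of all 3 tissues were Dnajb11, Dnajb7, Dnajc16, Hsf1, Hspa9, Hspb11, Hspbap1, Hspd1 and Hspe1. Liver and kidney peaks without a heart peak lay at 8 genes (9.3%, against 5.42% of all protein-coding genes). These were Bag4, Dnajb5, Dnajb9, Dnajc13, Dnajc5, Hsf4, Hsf5 and Hspa4. Hsp90b1 and Hspa8 had liver and heart peaks (2.33%, against 1.32%), and Dnajb2, Hsf2 and Hspbp1 had kidney and heart peaks (3.49%, against 1.57%). Peaks of 1 tissue alone lay at 3.49% of the genes in liver (against 7.0%), 6.98% in kidney (against 6.68%) and 3.49% in heart (against 4.3%). The liver and heart shares were below that of all protein-coding genes and the kidney share near it. In liver the genes were Dnaja3, Hspb6 and Hspb8, and in heart Hspa12a, Hspa14 and Hspb7. In kidney they were Dnajb1, Dnajc1, Dnajc18, Dnajc6, Hsp90aa1 and Hsph1. The absence from the other lists at these genes was not tested.

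**Figure D2:**
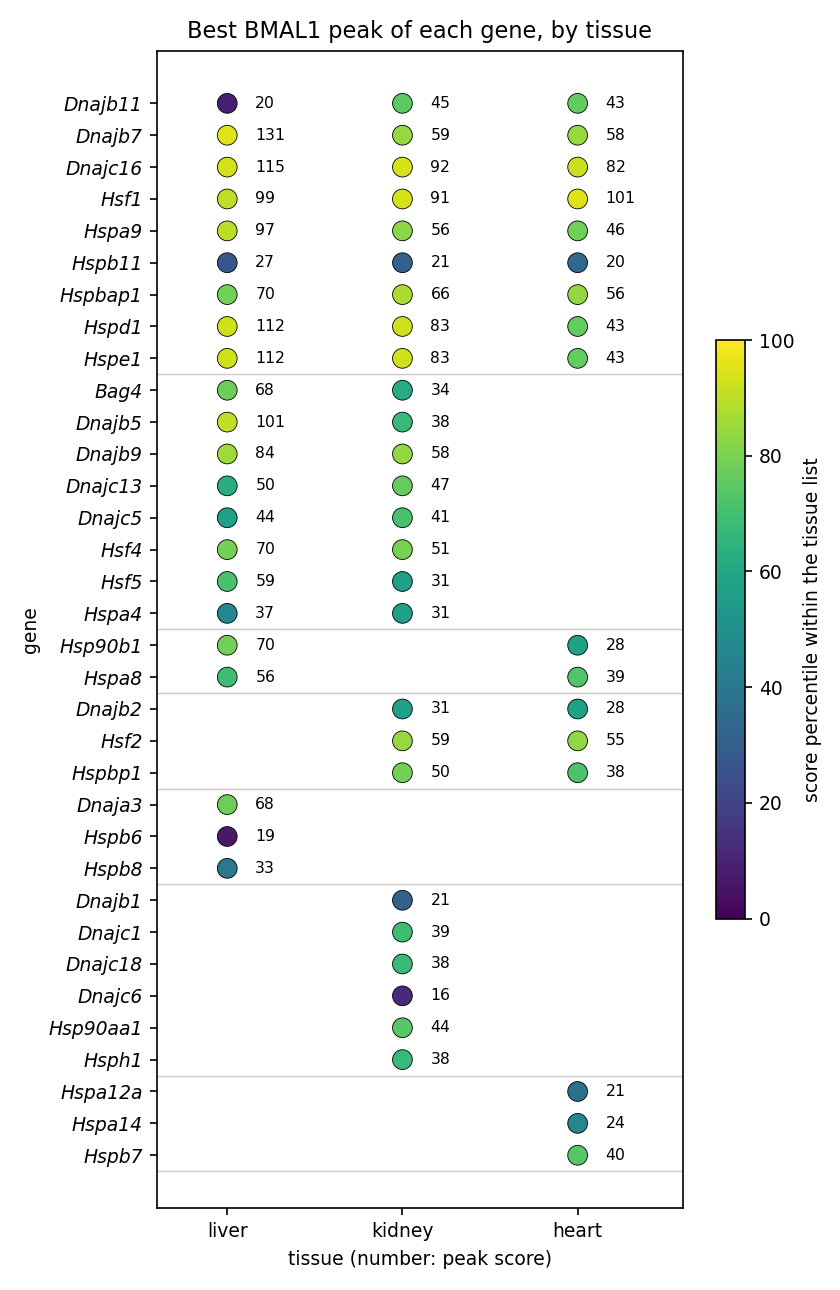
Each point is the highest-scoring BMAL1 peak of a gene (rows, the 34 genes with a peak) in a tissue (columns). Colour gives the score percentile within that tissue's list and the number beside it the score. The 9 genes with peaks of all 3 tissues are at the top, among them Hsf1 with scores of 99 in liver, 91 in kidney and 101 in heart, while the liver peak of Dnajb11 scored 20.

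Among the heat shock factors, Hsf1, the main activator of the heat shock response, had a peak in every tissue. Its scores were 99 in liver (rank 465), 91 in kidney (rank 250) and 101 in heart (rank 134), which placed it in the top 10% of each list. In heart no other gene of the set had a higher-ranked peak. The peaks lay between Hsf1 and its neighbour Bop1, 108, 69 and 76 bp outside Hsf1 in liver, kidney and heart (chr15:76477134-76477375 in liver, with Hsf1 at chr15:76477362-76501155), and were 5 to 44 bp from Bop1. Hsf2, a second factor of the family, had peaks in kidney (score 59, rank 622) and heart (score 55, rank 414) and none in liver. They overlapped, with centres 106 and 73 bp before an internal start of Hsf2 (chr10:57486186-57486373 in kidney). Hsf4, a factor of lens development, had a liver peak inside the gene (score 60, rank 1325) that neither other list held. A second site beyond the gene, inside its neighbour Nol3, was in liver (score 70) and kidney (score 51). At Hsf5 a shared liver and kidney site (scores 59 and 31) lay 2764 and 2734 bp outside the gene and within 1 kb of a start of Rnf43. Hsf2bp and Hsf3 had no peak. In this family 4 of 6 genes had a peak (66.7%, against 30.7% of all protein-coding genes). The sites at Hsf1 and Hsf5 and the second site at Hsf4 lay closer to a neighbour than to the Hsf gene.

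The HSP90 genes differed by tissue in where a peak was listed. Hsp90aa1, the stress-inducible cytosolic HSP90, had 1 peak, in kidney (score 44, rank 1037, chr12:110696447-110696634), 145 bp outside the gene. Hsp90b1 encodes GRP94, the HSP90 of the endoplasmic reticulum (ER). It had a liver peak (score 70, rank 1008, chr10:86704550-86704791) and an overlapping heart peak (score 25, rank 1257) inside the gene, 774 and 738 bp after its start. A second heart peak lay at the start itself, with its centre 25 bp downstream (score 28, rank 1076). No kidney peak lay at Hsp90b1. Hsp90ab1, the constitutive cytosolic form, had no peak, and the nearest was a kidney peak 22.1 kb away.

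In the HSP70 and HSP110 group, 6 of 14 genes had a peak (42.9%, against 30.7% of all protein-coding genes). Hspa9, the mitochondrial HSP70 (mortalin), lay at a common region with scores of 97 in liver (rank 495), 56 in kidney (rank 686) and 46 in heart (rank 537). The centres were 402, 378 and 469 bp outside the gene. Hspa8, the constitutive cytosolic HSP70, had overlapping peaks in liver (score 56, rank 1480, chr9:40800013-40800254) and heart (score 39, rank 679), 1143 and 1162 bp outside the gene. Of the HSP110 genes, whose products release nucleotide from HSP70, Hspa4 and Hsph1 had a kidney peak and Hspa4l had no peak in any list. Hspa4 had overlapping peaks in kidney (score 31) and liver (score 37), 875 and 817 bp inside its start. Hsph1 had a kidney peak at its start (score 38, rank 1295, chr5:149636234-149636421) and another near its far end (score 20, rank 2878). Heart alone listed Hspa14, a ribosome-associated HSP70 relative (score 24, rank 1321, centre 32 bp after the start), and Hspa12a (2 peaks, scores 21 and 19). The peaks at Hspa14 and, for the peak of score 21, at Hspa12a also lay within 1 kb of a start of a neighbour, Cdnf and Eno4.

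The heat-inducible genes Hspa1a and Hspa1b and the ER chaperone gene Hspa5 (BiP) were without a peak. The nearest peaks to Hspa1a were 28.9 kb away in each tissue, with scores of 83 (liver), 75 (kidney) and 87 (heart). These overlapped one another and were nearest to Vars. For Hspb1 the nearest peak was a liver peak of score 18 at 18.0 kb. For Hspa5 the nearest peak of any tissue was 129 kb away, in heart. Dnaja1, Dnajc3, Bag1 and Bag3 also had no peak within the window. The nearest peaks lay 22.0 kb from Dnaja1 (liver), 25.0 kb from Dnajc3 (kidney), 22.7 kb from Bag1 (kidney) and 64.6 kb from Bag3 (heart).

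Hspd1 and Hspe1 encode HSP60 and HSP10, the 2 parts of the mitochondrial chaperonin, and are transcribed away from each other from neighbouring starts, so they share every peak. The site scored 112 in liver (rank 342, chr1:55088214-55088455) and 83 in kidney (rank 311, chr1:55088229-55088416), in the top 10% of both lists. These centres lay 91 and 79 bp before the start of Hspd1 and 186 and 174 bp after that of Hspe1. The heart peak scored 43 (rank 592, chr1:55087743-55087940) and lay at a different position inside Hspd1. Its centre was 402 bp from the gene end that holds the start used above. It was 91 bp after another, internal start of Hspd1. Its centre was 493 bp from the liver centre and 481 bp from the kidney centre, and it overlapped neither. Dnaja3, a mitochondrial DnaJ gene, had a liver peak inside the gene (score 68, rank 1060), 18816 bp after its start.

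Of the 10 genes whose symbols begin with Hspb, 6 had a peak (60.0%, against 30.7% of all protein-coding genes). The highest scores belonged to Hspbap1, which encodes a binding partner of the small heat shock protein HSPB1 and is no small heat shock protein itself. Its common region scored 70 in liver (rank 1008), 66 in kidney (rank 502) and 56 in heart (rank 405), with centres 111, 97 and 86 bp before an internal start (chr16:35770155-35770396 in liver). A start of Slc49a4 also lay within 1 kb. Hspbp1, an exchange factor of HSP70, had a shared kidney and heart site (scores 50 and 38) beyond its far end and within 1 kb of a start of Ppp6r1. Hspb11, an intraflagellar transport gene, had a low peak in each tissue at 3 separate places, with scores of 27 in liver, 21 in kidney and 20 in heart. Its kidney centre was 12 bp before the start, its heart centre 443 bp and its liver centre 6315 bp before it, the latter pair inside Lrrc42.

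The peaks at the small heat shock genes proper were each from 1 tissue. Hspb7, a gene of heart and skeletal muscle, had a heart peak inside the gene (score 40, rank 654, chr4:141423354-141423551), 2673 bp after its start. Hspb8 had 2 liver peaks (scores 33 and 22), of which the higher-scoring lay 268 bp before the start. Hspb6 had a liver peak of score 19 (rank 4450), inside its neighbour Lin37. Hspb1, Hspb2, Hspb3 and Hspb9 had none.

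Of the 13 Dnajb genes 6 had a peak (46.2%, against 30.7% of all protein-coding genes), and all 6 were in the kidney list (against 18.0%). Dnajb9, an ER chaperone of the unfolded protein response, had overlapping peaks in liver (score 84, rank 680, chr12:44210041-44210282) and kidney (score 58, rank 644), 93 and 103 bp before its start. Dnajb11, the ER partner of BiP, had overlapping peaks in kidney (score 45, rank 1003) and heart (score 43, rank 592), 332 and 279 bp before its start and inside the neighbour Tbccd1. Its liver peak lay elsewhere, 21037 bp after the start, and was low in the list (score 20, rank 4329). Dnajb5 had overlapping peaks in liver (score 101, rank 452, chr4:42949679-42949920) and kidney (score 38, rank 1295), 68 and 75 bp before its start, and a second kidney peak inside the gene (score 30). Dnajb2 had overlapping peaks at its start in kidney (score 31) and heart (score 28). Dnajb1, the main cytosolic HSP40 and a heat-inducible gene, had a single kidney peak of score 21 (rank 2742), 256 bp before the start. The highest liver score of the whole set was assigned to Dnajb7 (131, rank 230), with 59 in kidney and 58 in heart. This common region lay 7370, 7380 and 7397 bp outside Dnajb7, at most 24 bp from St13, an HSP70 cochaperone gene, and within 1 kb of a start of Xpnpep3.

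Of the 28 Dnajc genes 6 had a peak (21.4%), and all 6 were in the kidney list. Over all protein-coding genes 30.7% had a peak of any tissue and 18.0% a kidney peak, so these shares lie below and near the background. Dnajc16, which encodes an ER membrane protein, had a common region before its start, with scores of 115 in liver (rank 314), 92 in kidney (rank 245) and 82 in heart (rank 210). This was the highest kidney score of the set. The centres lay 204, 232 and 224 bp before the start (chr4:141790728-141790969 in liver). A further liver peak (score 34) and a further heart peak (score 19) lay inside the neighbour Casp9. Dnajc13, a gene of endosome traffic, had a kidney peak 138 bp before a start (score 47, rank 938) and a separate liver peak 30756 bp inside it (score 50, rank 1743). Dnajc1, an ER membrane cochaperone, had a kidney peak 109 bp before a start (score 39, rank 1249), and Dnajc18 a kidney peak inside the gene (score 38, rank 1295). Dnajc5, the cysteine string protein of synaptic vesicles, had overlapping inner peaks in liver (score 44) and kidney (score 41). Dnajc6, which encodes the clathrin uncoating factor auxilin, had 2 kidney peaks of score 16 (rank 3480), 110 and 170 bp after annotated starts.

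Of the 6 Bag genes 1 had peaks (16.7%, against 30.7% of all protein-coding genes), namely Bag4, a silencer of death receptor signalling. A shared site scored 68 in liver (rank 1060, chr8:25785296-25785537) and 34 in kidney (rank 1530), 207 and 214 bp outside Bag4 and inside Lsm1. Another liver peak inside Bag4 scored 26. Dnaja genes other than Dnaja3 had no peak, so that 1 of 4 had one (25.0%, near the 30.7% of all protein-coding genes).

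The assigned peaks numbered 25 in liver, 28 in kidney and 19 in heart, and formed 48 merged regions. A peak of all 3 tissues was present in 5 regions, of 2 tissues in 14 and of 1 tissue in 29. Peaks of all 3 tissues were held by 6.44% of the regions at protein-coding genes and by 5.76% of all regions. Of the 2-tissue regions, 8 were shared by liver and kidney, 4 by kidney and heart and 2 by liver and heart. No overlapping peak of another tissue existed for 10 of the assigned liver peaks (40%), 11 of the kidney peaks (39.3%) and 8 of the heart peaks (42.1%). Among peaks at any protein-coding gene these shares were 63.1%, 56.6% and 62.8%, and over the whole lists 66.5%, 57.7% and 65.0%. With the lists cut to their upper 50% by score, the counts at heat shock and DnaJ genes were 3 of 17, 7 of 23 and 3 of 13. The shares above are for uncut lists and are no background for these counts. Where peaks of 2 tissues overlapped, their centres were 7 to 91 bp apart, with the smallest distances at Bag4, Dnajb5 and Hsf1 and the largest at Hspa9.

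The assigned peaks scored 19 to 131 in liver, 16 to 92 in kidney and 19 to 101 in heart, while the lists reached 389, 304 and 375. The median scores of the assigned peaks were 60 (liver), 40 (kidney) and 39 (heart), at percentiles of 72.1, 69.7 and 72.6. The 95% binomial intervals of these medians, which treat peaks as independent, were 46.3 to 78.8 in liver, 56.3 to 79.6 in kidney and 45.9 to 83.3 in heart. The liver and heart intervals hold the middle of the list, and the kidney interval lies above it. All peaks at protein-coding genes had median percentiles of 53.6, 52.4 and 54.2, and the difference from the assigned peaks was not tested. The percentiles ran from 6.6 to 95.2 in liver, 11.8 to 93.9 in kidney and 29.9 to 94.6 in heart. In the top 10% of their lists were 5 liver, 3 kidney and 2 heart peaks. The 5 common regions gave percentiles of 78.8 to 95.2 in liver, 82.7 to 93.9 in kidney and 78.4 to 94.6 in heart. Peaks of a single tissue had median percentiles of 33.2 in liver, 54.5 in kidney and 41.3 in heart. Their highest were Dnaja3 in liver (77.6), Dnajc13 in kidney (76.4) and the Hspd1 and Hspe1 site in heart (76.1). The part of the lists' thresholds in these lower percentiles was not tested.

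**Figure D3:**
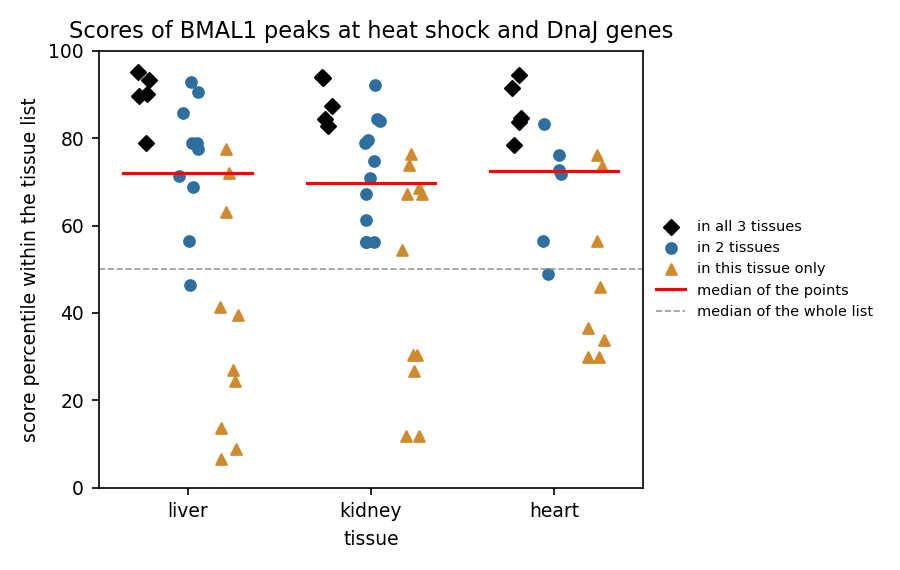
Each point is a BMAL1 peak at a heat shock or DnaJ gene, placed by tissue and by its score percentile within that tissue's list. Black diamonds are peaks of regions common to all 3 tissues, blue circles peaks found in 2 tissues and orange triangles peaks found in that tissue only. Red lines give the median of the points (72.1, 69.7 and 72.6) and the dashed line the median of a list; all diamonds lie above 78.

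The peak centre lay within 1 kb of a start of the assigned gene for 9 of 25 liver peaks (36.0%), 16 of 28 kidney peaks (57.1%) and 12 of 19 heart peaks (63.2%). Among all peaks at protein-coding genes, 29.5% in liver, 40.2% in kidney and 37.2% in heart lay within 1 kb of a protein-coding start of the same table. The latter counts a start of any protein-coding gene and not only of the assigned one, so the measures are unlike. Genes without a table entry count as no start here. Counting an end of the gene within 1 kb as well gave 14 liver, 21 kidney and 14 heart peaks, a count without a share over all peaks. By gene ends alone there were 14 liver (56.0%), 17 kidney (60.7%) and 12 heart peaks (63.2%). Among all peaks at protein-coding genes, 33.8%, 45.2% and 42.1% lay within 1 kb of an end of any such gene. This measure is again unlike, as it is not limited to the assigned gene. A peak centre fell inside 16 of the 87 promoter windows of the matched genes (18.4%, against 6.57% of all protein-coding windows). By tissue these were 6 windows in liver (6.9%, against 3.22%), 13 in kidney (14.9%, against 4.46%) and 7 in heart (8.05%, against 2.1%).

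The canonical E-box CACGTG, which reads the same on both strands, was searched in the promoter windows. It was present at 7 of the 14 genes with a peak centre in a window (50%): Dnajb9, Dnajc1, Dnajc16, Hsf2, Hspbap1, Hspd1 and Hsph1. Without a peak centre, 2 of 55 genes held it (3.64%), Dnajc8 and Hsf3. Over all protein-coding genes of the table it was present at 37.4% of those with a peak centre and 6.49% of those without. The other 7 bound promoters (Dnajb2, Dnajb5, Dnajc13, Hsp90b1, Hspa12a, Hspa14 and Hspb11) had no CACGTG in the window. Dnajb5 was among them although its liver peak ranked 452 of 4813. The variant CACGTT was searched on both strands and was found at 1 of the 16 windows (6.25%), that of Hspa14, and at 11.3% of the windows of the set without a peak centre. It was in 9.44% of all protein-coding windows with a peak centre and in 4.68% of all. The looser pattern CANNTG, which includes CACGTG, was found in 87.5% of the set's windows with a peak centre and 54.9% of those without. It was in 74.0% of all protein-coding windows with a peak centre and in 69.0% of all protein-coding windows. Among the set's windows with a peak centre, those of Dnajb5 were the ones without CANNTG. The absence says only that these letters are not in the window. The D-box TTATGTAA was in none of the 87 windows, and in 0.894% of all.

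At 6 of these 7 genes the E-box lay inside the peak and close to its middle. The printed sequences show it from 80 bases before the start of Hspd1, 83 before that of Hsf2, 107 before that of Dnajb9 and 125 before that of Dnajc1. The Hspd1 E-box was 14 bp from the liver centre and 2 bp from the kidney centre. At Dnajb9 these distances were 11 and 1 bp. Hspbap1 had 2 E-boxes, from 92 and 26 bases before the start, and the first was 21, 7 and 4 bp from the liver, kidney and heart centres. The Hsf2 E-box was 25 bp from the kidney centre and 8 bp from the heart centre, and that of Dnajc1 13 bp from the kidney centre. At Dnajc16 the E-box, from 78 bases before the start, was 129 to 157 bp from the centres and outside all 3 peaks. Over the 14 pairs of gene and peak, the nearest E-box was a median of 12 bp from the centre, against 19 bp over 844 such pairs at all protein-coding genes. The E-box lay inside the peak in 11 of the 14 pairs (78.6%), against 93.7% over all protein-coding genes, and the pairs outside were those of Dnajc16. The heart peak at Hspd1 does not cover the Hspd1 E-box.

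**Figure D4:**
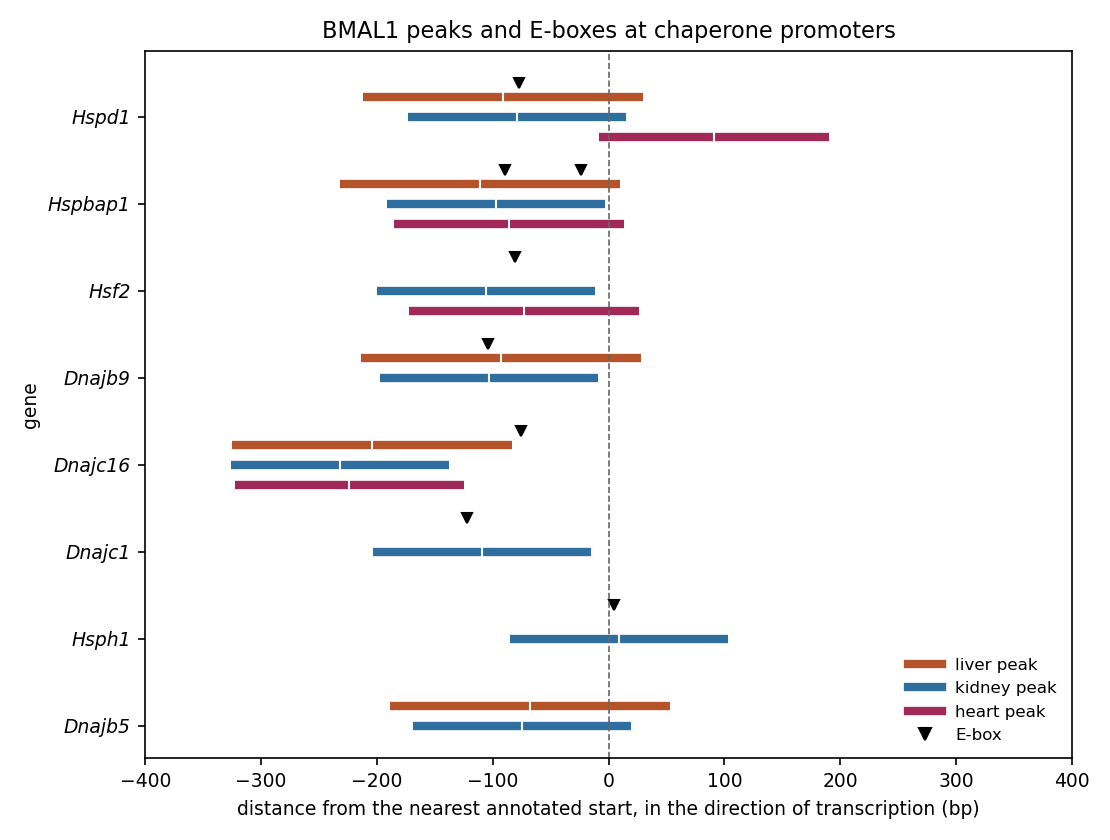
Bars show BMAL1 peaks of liver, kidney and heart at 8 genes by distance in bp from the nearest annotated start, with the centre as a white tick and E-boxes as black triangles. The E-box lies near the peak centres at Hspd1 (liver and kidney), Hspbap1, Hsf2, Dnajb9, Dnajc1 and Hsph1, and beside the peaks at Dnajc16. Dnajb5 has none in its window. At Hspd1 the heart peak is drawn from an internal start and the liver and kidney peaks from the outer start. Their relative positions therefore cannot be read from that row: the heart and liver centres were 493 bp apart and the peaks did not overlap.

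Heat shock element patterns were searched as GAANNTTC and TTCNNGAA, each its own reverse complement. Of the 16 windows with a peak centre, 2 held each pattern, and both were the overlapping windows of Hsph1. These 12.5% come from 1 gene. In the windows of the set without a peak centre GAANNTTC was in 21.1% and TTCNNGAA in 9.86%. Over all protein-coding windows the shares were 7.21% and 7.61%, and over those with a peak centre 4.29% and 5.58%. In Hsph1 the last 100 bases before the start, with TTCNNGAA in capitals, show 1 match from 54 bases before the start, while CACGTG begins 19 bases before it.
Hsph1, last 100 bases: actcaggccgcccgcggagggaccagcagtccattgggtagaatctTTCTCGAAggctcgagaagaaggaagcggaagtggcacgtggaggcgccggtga
The kidney peak covers the E-box, whose middle was 4 bp from the peak centre.

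The 10 kb limit of the rule fell close to some peaks. Farthest out within the limit, though not close to it, were the common region at Dnajb7 (7370 to 7397 bp) and a liver peak at Hspb11 (6216 bp). Just outside were a liver and a kidney peak 10031 and 10064 bp from Bag4 (scores 75 and 49), nearest to Ddhd2. A region of all 3 tissues lay 13707 to 13766 bp from Hsf4 (liver score 55, kidney score 51, heart score 59). Of the 52 genes without a peak, 31 had one within 50 kb (59.6%, against 28.9% of all protein-coding genes without a peak).

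Other protein-folding and ER stress genes were counted from lists of 54 symbols, of which 53 matched a protein-coding gene and Aha1 did not. A peak of any tissue lay at 24 of them (45.3%, against 30.7% of all protein-coding genes), and the liver, kidney and heart lists held 14, 15 and 10 of them. In these lists 18.1%, 18.0% and 11.5% of all protein-coding genes had a peak. The cytosolic chaperonin CCT had peaks at 3 of 8 subunit genes (37.5%). Each was from a different tissue (Cct8 in liver, Cct4 in kidney and Tcp1 in heart). Of 15 cochaperone genes 5 had a peak (33.3%, near the share of all protein-coding genes). Of 9 mitochondrial and ER cofactors 6 had one (66.7%), and of 18 ER stress genes 10 (55.6%). The small heat shock genes Cryab, Cryaa and Odf1 had none. For 3 of the 53 genes the peaks of all tissues overlapped, against 3.09% of all protein-coding genes. Herpud1, an ER-associated degradation gene, had the strongest, with scores of 185 in liver (rank 66), 117 in kidney (rank 132) and 107 in heart (rank 119). Lonp1, a mitochondrial protease gene, scored 71, 56 and 58. St13 was assigned the same region as Dnajb7.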

How the data were processed

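BMAL1 ChIP-seq and input libraries of liver, kidney and heart were grouped from their titles. Per the labels, the authors made each deposited peak list, with a whole-number score per peak, from all replicates of a tissue together. The submitters' processing notes name Bowtie2, SAMtools, HOMER and the build mm10, with no versions or roles. The sources used here give neither the peak filter nor what the score means.

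Genes and promoter windows came from RefSeq tables of GRCm38.p6, the assembly behind mm10. Peaks, merged regions (overlap of at least 1 bp) and motifs were handled in Python 3.11.15 with pandas 2.3.3, tested on simulated peaks with known answers. No genome sequence was used here, so motifs were searched in promoter windows and not in whole peaks. The read depth is unknown.

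Genes with values in the text were those with a common region, the 5 best-scoring per tissue, the 5 best single-tissue peaks per tissue, and 20 well-known chaperone genes whatever their values. Other genes were added for completeness after their values were seen. The gene set, the lists and this rule were chosen with earlier results of these data known. No test was made, because each tissue has 1 pooled list. Alternatives covered the window, the assignment, the peak threshold, the overlap and the start distance. The E-box search restricted to the bases before the start was added after seeing the data.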

Additional observations from a re-analysis of the deposited data

How the results depend on the processing

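Of 53 alternative values, 36 stayed within 1.5 times the reported count, or within the interval of a median percentile, and 17 moved further. Inside genes alone, the genes with a peak numbered 11 in liver, 13 in kidney, 8 in heart and 1 in all 3 tissues. Within 50 kb they numbered 50, 48, 34 and 21 (58.1%, 55.8%, 39.5% and 24.4%, against 34.0%, 33.1%, 22.7% and 11.0% of all protein-coding genes). With each peak given to its nearest protein-coding gene, 11 genes had a heart peak and 3 had peaks of all tissues. Single-tissue peaks numbered 3 of 17 (liver), 7 of 23 (kidney) and 3 of 13 (heart) when only the better-scoring 50% of peaks were kept. They numbered 3 in liver and 7 in kidney with 2519 top peaks from each list, and 5 in heart when centres within 1000 bp counted as shared. The matching shares over all peaks are not given here. Liver peaks within 1 kb of a start numbered 14 when either gene end counted too, again without a share over all peaks. Common regions numbered 5 or 6 under the alternatives for overlap, distance between centres and peak threshold. The alternatives for window and gene assignment were not tried for them. The common regions at Dnajb7 and Hsf1 lay outside these genes and were nearest to St13 and Bop1.

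No paired analysis was possible because the deposited lists pool the replicates, and for the same reason no replicate was left out. The planned search for CACGTG in whole peaks was not run, since it needs a genome sequence. With read depth unknown, a missing peak sets no upper limit on binding.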

Other observations

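None of the 16 pseudogenes whose symbols match the same rule had a peak inside or within 10 kb in any list.

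A liver peak of score 150 (rank 152), above every liver peak assigned to the heat shock and DnaJ genes, lay 19938 bp from Dnajc16 and nearest to Agmat, where an overlapping kidney peak scored 53 (rank 758) and no heart peak was listed.

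Several ER folding genes outside the naming rule also had peaks, and were chosen here after their values were seen. Canx, which encodes calnexin, scored 85 in liver and 64 in kidney. Pdia3, a disulphide isomerase gene, scored 96 in liver and 52 in heart. Pdia4 scored 49 in liver and 47 in kidney, and Hyou1, an ER HSP70 relative, had 2 kidney peaks, the higher of score 61.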
